A study of Mus musculus with 20 samples.

Results

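The integrated stress response and the cytosolic tRNA synthetases were described in fetal mouse liver as a set of 35 named genes. They were named as transcription factors and downstream genes of the response together with synthetase genes. The rule itself used no expression value, but the genes were chosen with earlier results of these data known. A gene entry was present for 34 of the 35 among 45802 entries in the table (Vldlr-ps was not analysed here), and all 34 had a value in each of the 20 libraries and passed the filter on low values. They comprised 5 transcription factors, 5 effector and feedback genes, 9 genes of amino acid and one-carbon synthesis, and 15 tRNA synthetases.

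Bulk RNA sequencing was done on livers of C57BL/6 fetuses at E17.5, and every dam had been fasted for 24 h, so no fed group stands beside them. Each of the 5 groups held 4 fetuses, 2 female and 2 male. In the Ppara arm, Ppara heterozygous fetuses of heterozygous dams (HetDam_HetFetus) served as controls for heterozygous fetuses of Ppara knockout dams (KODam_HetFetus) and for knockout fetuses of knockout dams (KODam_KOFetus), so that all 3 groups carried at least 1 mutant allele. PPARA is the nuclear receptor that turns on fatty acid oxidation during fasting. In the Cpt2 arm, Cpt2f/f fetuses of Cpt2f/f dams (FloxDam_FloxFetus) served as controls for Cpt2f/f fetuses of dams that also carried Albumin-Cre (Cpt2LKODam_FloxFetus). Albumin-Cre acts in hepatocytes, and CPT2 is the inner mitochondrial enzyme that long-chain fatty acids need for oxidation. Titles call the floxed animals WT, but grouping was by genotype label. The fetal genotype label of Cpt2LKODam_FloxFetus gives the floxed alleles without Cre.

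In the integrated stress response, kinases that sense amino acid shortage, endoplasmic reticulum stress, double-stranded RNA or heme shortage phosphorylate the initiation factor eIF2. General translation then falls while the mRNA of the transcription factor ATF4 is translated more, and ATF4 with partners of the C/EBP family switches on amino acid synthesis, amino acid transport and tRNA synthetase genes. Much of the control of ATF4 is therefore translational, and mRNA levels report on its targets more than on ATF4 itself. Aminoacyl-tRNA synthetases load each tRNA with its amino acid.

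ATF4 and C/EBP proteins bind a composite element whose core can be written TGATGNAA (TTNCATCA on the opposite strand). Promoter windows of 250 bases before to 50 after a transcript start, from RefSeq on GRCm38.p6, were available for 25 of the 34 genes. The element, searched on both strands as these letters, was present in 10 of the 25 (40.0%), against 4.51% of 27025 genes with a window. The 10 were Atf3, Trib3, Chac1, Asns, Pycr1, Aars, Gars, Iars, Tars and Yars. Many of the 34 were named as downstream genes of the response, so these shares are not a test of the set. A match is a string of letters, not a measured binding site. The following 6 are shown because 4 of these genes were called higher when both dam and fetus lacked Ppara (Asns, Chac1, Gars, Aars), 1 varied most among the libraries (Atf3), and 1 was called lower when the dam lacked Ppara (Yars). Capitals mark the element, and each is written 5′ to 3′ on the strand of the gene.
Asns: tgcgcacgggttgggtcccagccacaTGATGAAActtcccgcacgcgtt
Chac1: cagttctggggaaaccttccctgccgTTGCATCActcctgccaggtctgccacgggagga
Gars: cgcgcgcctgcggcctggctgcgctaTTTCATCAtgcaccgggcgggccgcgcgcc
Aars: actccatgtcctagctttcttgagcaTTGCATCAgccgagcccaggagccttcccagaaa
Atf3: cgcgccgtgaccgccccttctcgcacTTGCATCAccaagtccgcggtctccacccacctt
Yars: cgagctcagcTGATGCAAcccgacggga

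The printed stretches lie at chr6:7693210-7693258 on the minus strand (Asns), chr2:119351023-119351082 on the plus strand (Chac1), chr6:55037945-55038000 on the plus strand (Gars), chr8:111033704-111033763 on the plus strand (Aars), chr1:191183410-191183469 on the minus strand (Atf3) and chr4:129189896-129189923 on the plus strand (Yars). The element occupied positions -23 to -16 from the transcript start in Asns, -193 to -186 in Chac1, -30 to -23 in Gars, -112 to -105 in Aars and -110 to -103 in Atf3. In Yars it lay just inside the transcript, at positions 4 to 11. Aars held a second match, not printed above, also inside the transcript at positions 10 to 17. The starts used for Aars and Yars fall within the annotated span of the gene, so other transcripts of these genes start upstream.

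The values are log2 values of an expression quantity that the deposited table does not name. Libraries share the same distribution after quantile normalization, so read depth is unknown and levels are not compared between genes. Each library had a value for 23334 to 26255 genes, and 11807 genes passed the filter. The hepatocyte transcripts Alb (log2 14.5 to 16.1) and Afp (12.7 to 14.0) were abundant in all 20 libraries. In the Ppara arm Ppara mRNA averaged 3.13 ± 0.281 (SD, n = 4) for HetDam_HetFetus, 2.56 ± 0.679 with a knockout dam alone and 2.26 ± 0.27 with a knockout fetus as well, so transcripts of the locus were still measured in knockout fetuses. Within KODam_HetFetus, Ppara read 2.17 and 1.81 in replicates 1 and 2, and 3.05 and 3.22 in replicates 3 and 4. It ran from 2.86 to 3.47 in HetDam_HetFetus and from 1.87 to 2.48 in KODam_KOFetus. The reason for this split was not tested. Skeletal muscle transcripts stood more than 6 log2 units above the median of libraries in HetDam_HetFetus replicate 4 and KODam_KOFetus replicate 2, as did exocrine pancreas transcripts in Cpt2LKODam_FloxFetus replicate 2. Results are given without these 3 libraries where that changes a call. Some fetuses share a number in their descriptions that is presumed to be a litter: the first pair of replicates of KODam_HetFetus, the first pair of KODam_KOFetus, and replicates 3 and 4 of FloxDam_FloxFetus. In bulk liver, fewer cells of a type and less RNA per cell cannot be told apart.

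**Figure D1:**
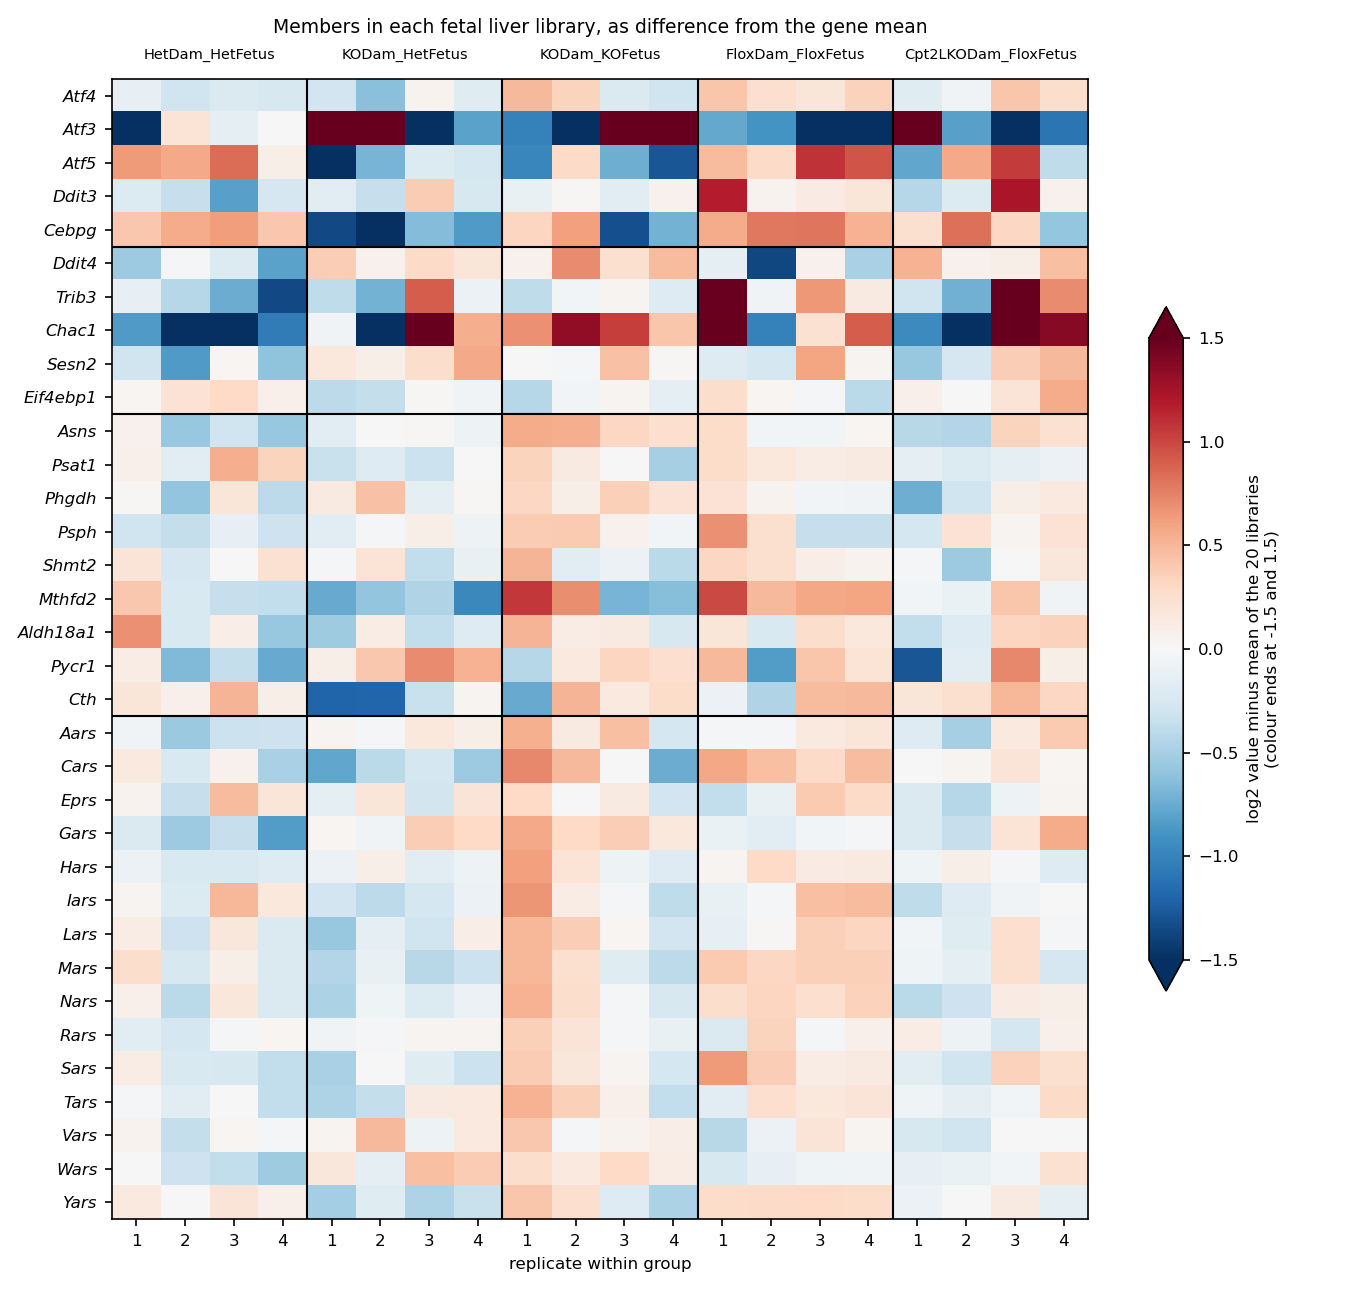
Each square is the log2 value of a gene (rows, grouped by role) in a library (columns, 4 per group) minus the mean of that gene over the 20 libraries, with colour ending at -1.5 and 1.5. Cebpg is low in all 4 KODam_HetFetus libraries (1.56 to 2.42), and most synthetase genes are highest in the first KODam_KOFetus library.

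Across the 20 libraries the 34 genes differed widely in how much they varied. Atf3, a stress-induced transcription factor, spanned 8.16 log2 units from its lowest to its highest library, and Chac1, which degrades glutathione, spanned 4.05. Trib3, a pseudokinase that restrains ATF4, spanned 2.94. The synthetase genes moved less, from 0.62 for Rars to 1.50 for Cars, and Atf4 itself spanned 1.12.

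With the fetal Ppara genotype label the same, heterozygous fetuses of Ppara knockout dams were compared with heterozygous fetuses of heterozygous dams. The transcription factors Cebpg and Atf5 fell in the fetal liver, as did Cth, Psat1 and Yars, while Gars, Wars, Sesn2 and Ddit4 rose. Atf4 mRNA stood at 6.48 ± 0.28 against 6.52 ± 0.0775 (SD, n = 4 per group). The 34 genes thus held 4 called higher, 5 called lower and 25 not called (limma, Benjamini-Hochberg adjusted p under 0.05 over 11800 genes). Among all genes tested 26.4% were called higher and 12.6% lower, so the higher calls of the set were a smaller share than in the background and the lower calls a share near it. The median log2 fold change was -0.02 over the 34 genes and 0.14 over all genes tested, and leaving out 1 library at a time put the median of the 34 between -0.05 and 0.07. Without KODam_HetFetus replicate 1 the all-gene lower calls went from 1483 to 949. Centring the libraries on a trimmed mean moved the all-gene median to 0.02 and the median of the 34 to -0.15, with 3 called higher and 7 lower (Eif4ebp1 and Iars joined the lower side), and the all-gene calls moved from 3117 higher and 1483 lower to 2212 and 2232.

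Among the transcription factors, Cebpg (chromosome 7, 35046422 to 35056566, GRCm38.p6), a C/EBP family partner of ATF4, had log2 values of 3.48, 3.63, 3.70 and 3.48 in HetDam_HetFetus and 1.72, 1.56, 2.42 and 2.22 in KODam_HetFetus. The groups did not overlap, and the lowest values were those of the presumed littermates, replicates 1 and 2. Cebpg stood 1.59 log2 units lower (-1.59 ± 0.33, SE), with a limma adjusted p of 0.00148, and its 95% interval ran from -2.29 to -0.89. This was the largest called change of the 34 genes in this comparison, and it kept its call in all 22 alternative settings run.

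Atf5 (chromosome 7, 44812256 to 44816658), a relative of ATF4 whose translation is controlled in the same way, read 7.24, 7.17, 7.43 and 6.68 in HetDam_HetFetus and 5.09, 5.90, 6.39 and 6.33 in KODam_HetFetus. The groups did not overlap. The log2 fold change was -1.20 ± 0.38 (limma adjusted p = 0.0179). Without KODam_HetFetus replicate 1 it was -0.92 (adjusted p = 0.0745), and without both presumed littermates it was -0.77 (adjusted p = 0.206). With litter as a random block it was -1.11 (adjusted p = 0.0608), so the call was lost there too.

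Atf4 (chromosome 15, 80255184 to 80257545), the central factor, had log2 values of 6.62, 6.44, 6.52 and 6.50 in HetDam_HetFetus and 6.46, 6.11, 6.79 and 6.56 in KODam_HetFetus. These overlapped, and the fold change of -0.04 ± 0.17 was not called (limma adjusted p = 0.878, 95% interval -0.40 to 0.32). Ddit3 (chromosome 10, 127290793 to 127296291), which encodes the pro-apoptotic factor CHOP, read 2.99, 2.85, 2.38 and 2.94 against 3.04, 2.85, 3.58 and 2.95. These too overlapped, with a log2 fold change of 0.32 ± 0.29 (adjusted p = 0.406). The annotated spans of Ddit3 and the synthetase gene Mars overlap at one end, and how reads there were assigned is not known.

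Atf3 was not called, yet its libraries stood far apart, and it is singled out here after its values were seen. In KODam_HetFetus it read 4.86 and 7.09 in the presumed littermates and -0.35 and 0.67 in the other 2, against -0.25, 1.67, 1.32 and 1.47 in HetDam_HetFetus. The log2 fold change of 2.02 ± 1.40 had an adjusted p of 0.264 (limma), so the spread within KODam_HetFetus was larger than the difference between groups.

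Of the effector and feedback genes, Sesn2 and Ddit4, which both restrain mTORC1 signalling, rose. Sesn2 (chromosome 4, 132492804 to 132510456) had log2 values of 1.60, 1.05, 1.92 and 1.29 in HetDam_HetFetus and 2.06, 1.99, 2.16 and 2.47 in KODam_HetFetus. Ddit4 (chromosome 10, 59949675 to 59951770) read 4.00, 4.52, 4.34 and 3.74 against 4.91, 4.60, 4.83 and 4.72. Neither pair of groups overlapped, although the gap between the nearest libraries was small in both genes. The log2 fold changes were 0.71 ± 0.24 for Sesn2 (limma adjusted p = 0.0258) and 0.62 ± 0.24 for Ddit4 (adjusted p = 0.0479). Both calls were near the threshold: that of Sesn2 was lost without HetDam_HetFetus replicate 2 (adjusted p = 0.0873), HetDam_HetFetus replicate 4 (0.0634) or KODam_HetFetus replicate 4 (0.0757), and that of Ddit4 in 16 of 22 alternatives.

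Trib3 (chromosome 2, 152337425 to 152344060) read 2.77, 2.47, 2.15 and 1.54 in HetDam_HetFetus and 2.51, 2.19, 3.80 and 2.81 in KODam_HetFetus. The groups overlapped (log2 fold change 0.60 ± 0.44, limma adjusted p = 0.288). Chac1 was not called at 1.45 ± 0.79 (adjusted p = 0.151), and without KODam_HetFetus replicate 2 it was called at 2.16 (adjusted p = 0.034). Eif4ebp1, the 4E-BP1 inhibitor of cap-dependent translation, stood at -0.35 ± 0.15 (adjusted p = 0.0691), with no overlap between groups.

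Among the 9 genes of amino acid and one-carbon synthesis, none was called higher and 2 were called lower. Cth (chromosome 3, 157894248 to 157925081), which makes cysteine from cystathionine, read 6.76, 6.66, 7.09 and 6.67 in HetDam_HetFetus and 5.38, 5.39, 6.24 and 6.62 in KODam_HetFetus. The presumed littermates were lowest, and the groups did not overlap by a narrow margin. Cth fell by 0.89 ± 0.28 log2 units (limma adjusted p = 0.019), and without the presumed littermates the value was -0.37 (adjusted p = 0.375). A random litter block ended the call as well (adjusted p = 0.0793). It was also lost without HetDam_HetFetus replicate 3 (0.0538), KODam_HetFetus replicate 1 (0.0737) or KODam_HetFetus replicate 2 (0.0674).

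Psat1, of serine synthesis, averaged 7.64 ± 0.31 (SD, n = 4) in HetDam_HetFetus and 7.23 ± 0.149 in KODam_HetFetus, and its log2 fold change of -0.41 ± 0.15 passed the threshold (limma adjusted p = 0.0418) but lost its call in 12 of 22 alternatives. Asns (chromosome 6, 7675165 to 7693209), the asparagine synthetase and a classical ATF4 target, read 6.54, 5.91, 6.18 and 5.91 in HetDam_HetFetus and 6.32, 6.47, 6.49 and 6.40 in KODam_HetFetus. Control replicate 1 lay above all 4 libraries of the knockout dams, so the groups overlapped (log2 fold change 0.28 ± 0.17, adjusted p = 0.191). The other serine and folate genes lay on both sides of 0, from Mthfd2 at -0.56 ± 0.30 (adjusted p = 0.151) to Phgdh at 0.31 ± 0.19 (0.195), and Pycr1, of proline synthesis, stood at 0.85 ± 0.37 (0.075).

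Of the 15 synthetase genes, Gars (glycine) and Wars (tryptophan) rose, Yars (tyrosine) fell, and 12 were not called. Gars (chromosome 6, 55038001 to 55079504) had log2 values of 5.31, 4.98, 5.18 and 4.69 in HetDam_HetFetus and 5.56, 5.48, 5.90 and 5.83 in KODam_HetFetus. The groups did not overlap, and Gars stood 0.65 ± 0.17 higher (limma adjusted p = 0.00617). Wars averaged 2.62 ± 0.221 (SD, n = 4) against 3.14 ± 0.26, a log2 fold change of 0.52 ± 0.13 (adjusted p = 0.00538). Its groups overlapped, with KODam_HetFetus replicate 2 at 2.79 and HetDam_HetFetus replicate 1 at 2.92. Yars averaged 4.54 ± 0.0801 against 4.06 ± 0.149, with no overlap and a log2 fold change of -0.47 ± 0.15 (adjusted p = 0.0157), which became 0.051 without KODam_HetFetus replicate 1. The promoter windows of Gars and Yars both hold the element shown above.

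**Figure D2:**
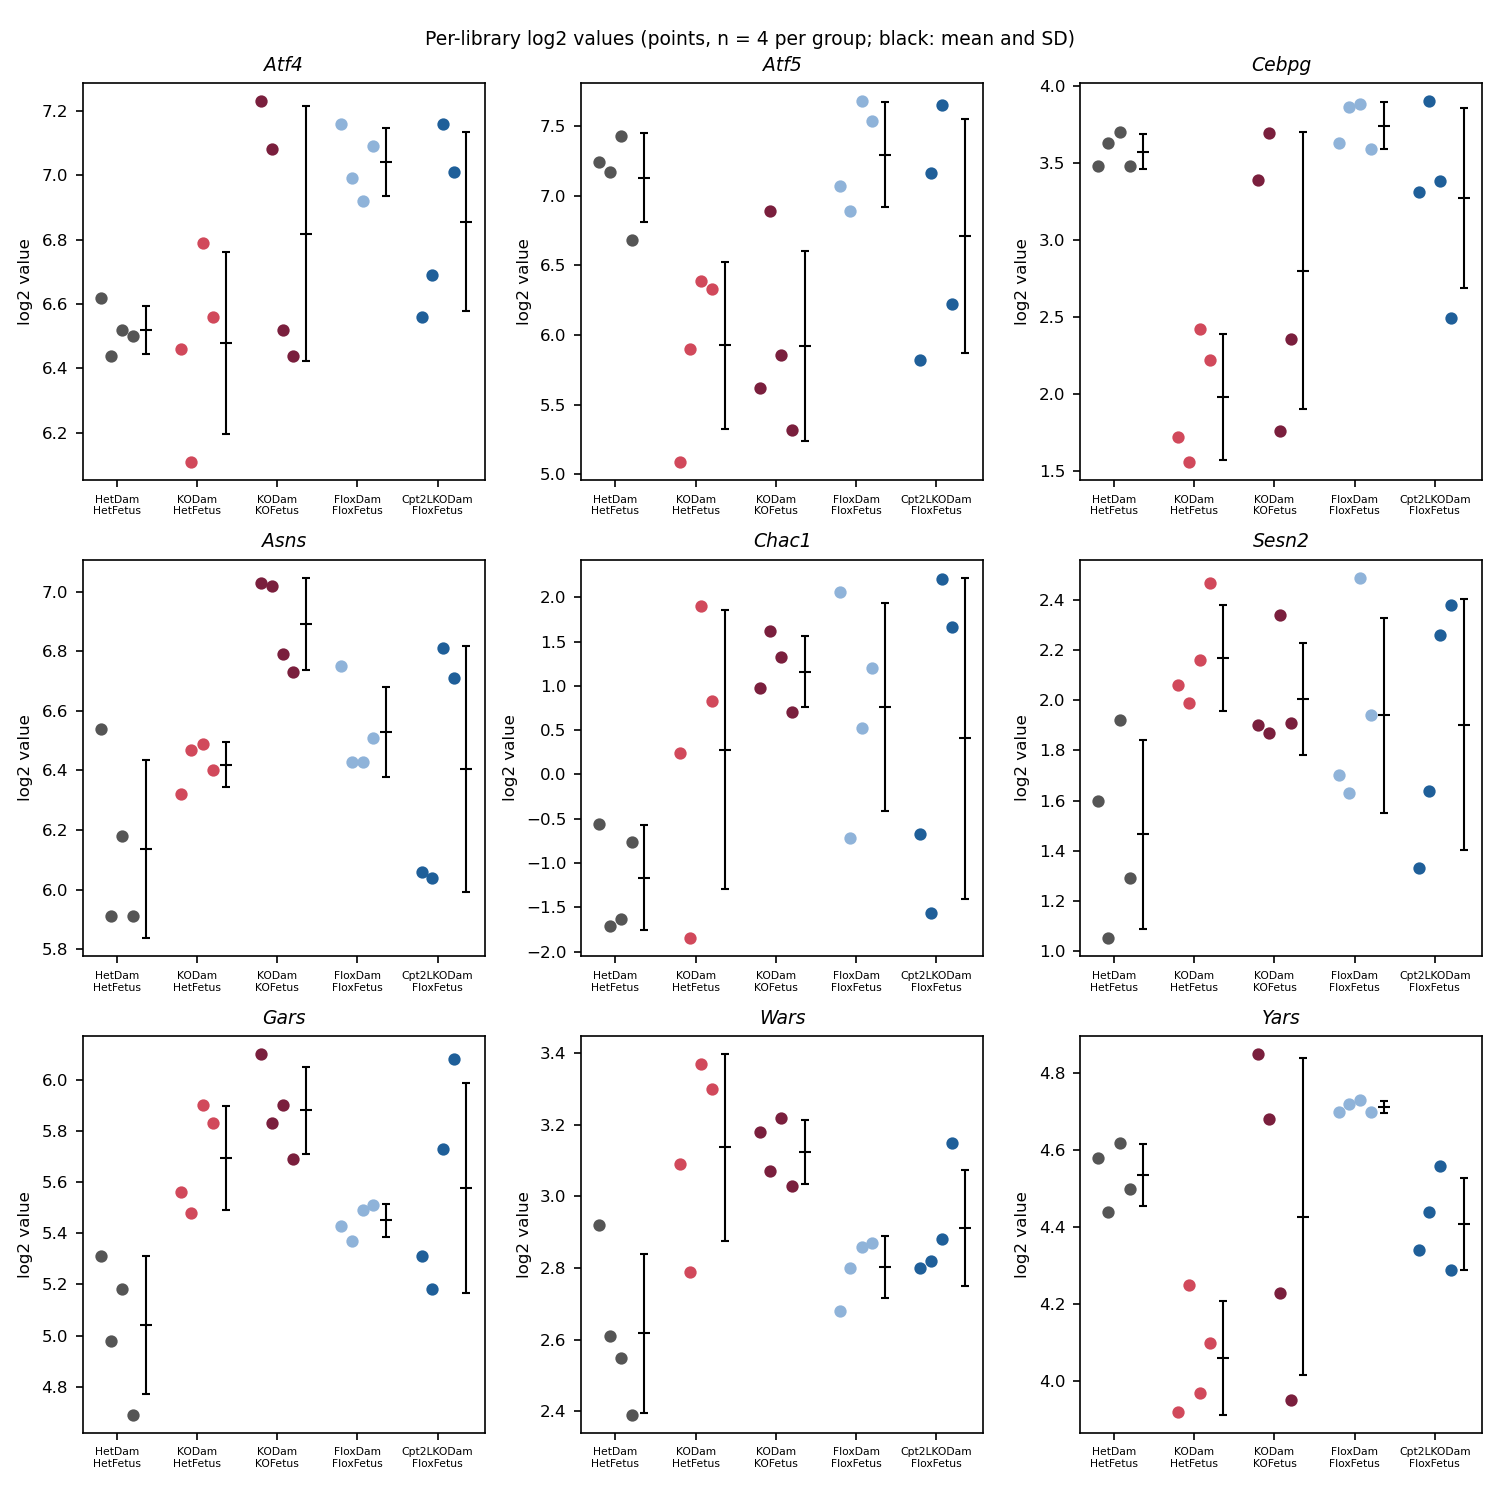
Log2 values of 9 genes in each library, with 4 points per group in replicate order from left to right and the group mean and SD in black. Cebpg and Yars do not overlap between HetDam_HetFetus and KODam_HetFetus, Asns lies highest in KODam_KOFetus (6.73 to 7.03), and Atf4 overlaps between these groups.

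The upstream machinery and neighbouring pathways were described by lists. Of 17 genes for eIF2, its kinases, its exchange factor, its phosphatase and associated factors, 7 rose and 1 fell, with a median of 0.34 against 0.14 for all genes. Examples are the eIF2B subunit genes Eif2b2 (0.87 ± 0.13, limma adjusted p = 0.000178) and Eif2b3 (0.90 ± 0.18, adjusted p = 0.00126). Others are the associated factor gene Eif2a (0.47 ± 0.09, limma adjusted p = 0.000976) and Ppp1r15a, the stress-induced GADD34 subunit of the eIF2 phosphatase (0.95 ± 0.22, adjusted p = 0.00253). The gene that fell, named after its value was seen, was the adaptor Nck1 (-0.96 ± 0.28, adjusted p = 0.0124).

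Among 26 tested genes of a longer list of ATF4 targets, 6 rose and 4 fell, with a median of 0.07. Both shares were near those of all genes in this comparison, 26.4% higher and 12.6% lower, and the counts of the lists that follow stand against the same background. Ppp1r15a is also on this list, and Tcea1 (0.59), a transcription elongation factor, and Herpud1 (0.84), of endoplasmic reticulum degradation, rose, while the neutral amino acid transporter Slc1a4 fell by 1.01. The other cytosolic synthetases and scaffold genes gave 3 rises and 1 fall among 8, with the scaffolds Aimp2 at 0.53 and Aimp1 at 0.41, the lysine enzyme Kars at 0.48, and the aspartate enzyme Dars at -0.84. Among 16 mitochondrial synthetases, Mars2 (1.11) and Fars2 (0.35) rose and Yars2 (-0.45) fell.

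Further serine, folate, proline and transsulfuration genes gave 3 rises and 5 falls among 22 and a median of -0.36, with falls of Mthfd1 (-1.01), Pycrl (-1.07) and Gnmt (-1.09). The IRE1 and ATF6 branches of the unfolded protein response gave 1 rise and 5 falls among 15, with Atf6 at 0.91 and Xbp1 (-1.02), Atf6b (-0.62) and Pdia4 (-0.85) lower. Sesn2 and Ddit4 are also known as p53 targets, so p53 and cell cycle genes were listed too. Of 12 tested p53 targets 6 rose and none fell (Trp53inp1 1.39, Gtse1 1.15, Aen 0.82, Mdm2 0.46), and of 20 cell cycle genes 15 rose and none fell (Ccne1 1.30, Aurkb 1.01, Ccnb1 0.98, Cdk1 0.93).

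Some blood cell markers moved in the same comparison. Neutrophil and myeloid progenitor markers fell in 10 of 13 genes, and their summed linear value was 5784 to 8771 in HetDam_HetFetus and 3366 to 5596 in KODam_HetFetus, without overlap. Summed erythroid markers ran from 97823 to 110063 and from 109698 to 117860. Much of that sum was Hba-a1, which read 16.36 in every library of both groups and so could not differ. Of 12 erythroid genes 1 rose and 0 fell. Summed hepatocyte markers ran from 69952 to 116887 and from 65604 to 92509, and of 15 genes 1 rose and 2 fell. No gene of these 3 lists was under a linear value of 1 in all libraries of a group. Their part in the results above was not tested.

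Without the 3 libraries with the most muscle or pancreas transcripts, 2 genes were called higher (Gars and Wars) and 4 lower (Atf5, Cebpg, Cth and Yars). A stricter cut that set aside 5 libraries left HetDam_HetFetus with 1, which is then assumed to vary like the other groups, and called 0 higher and Cebpg alone lower.

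**Figure D3:**
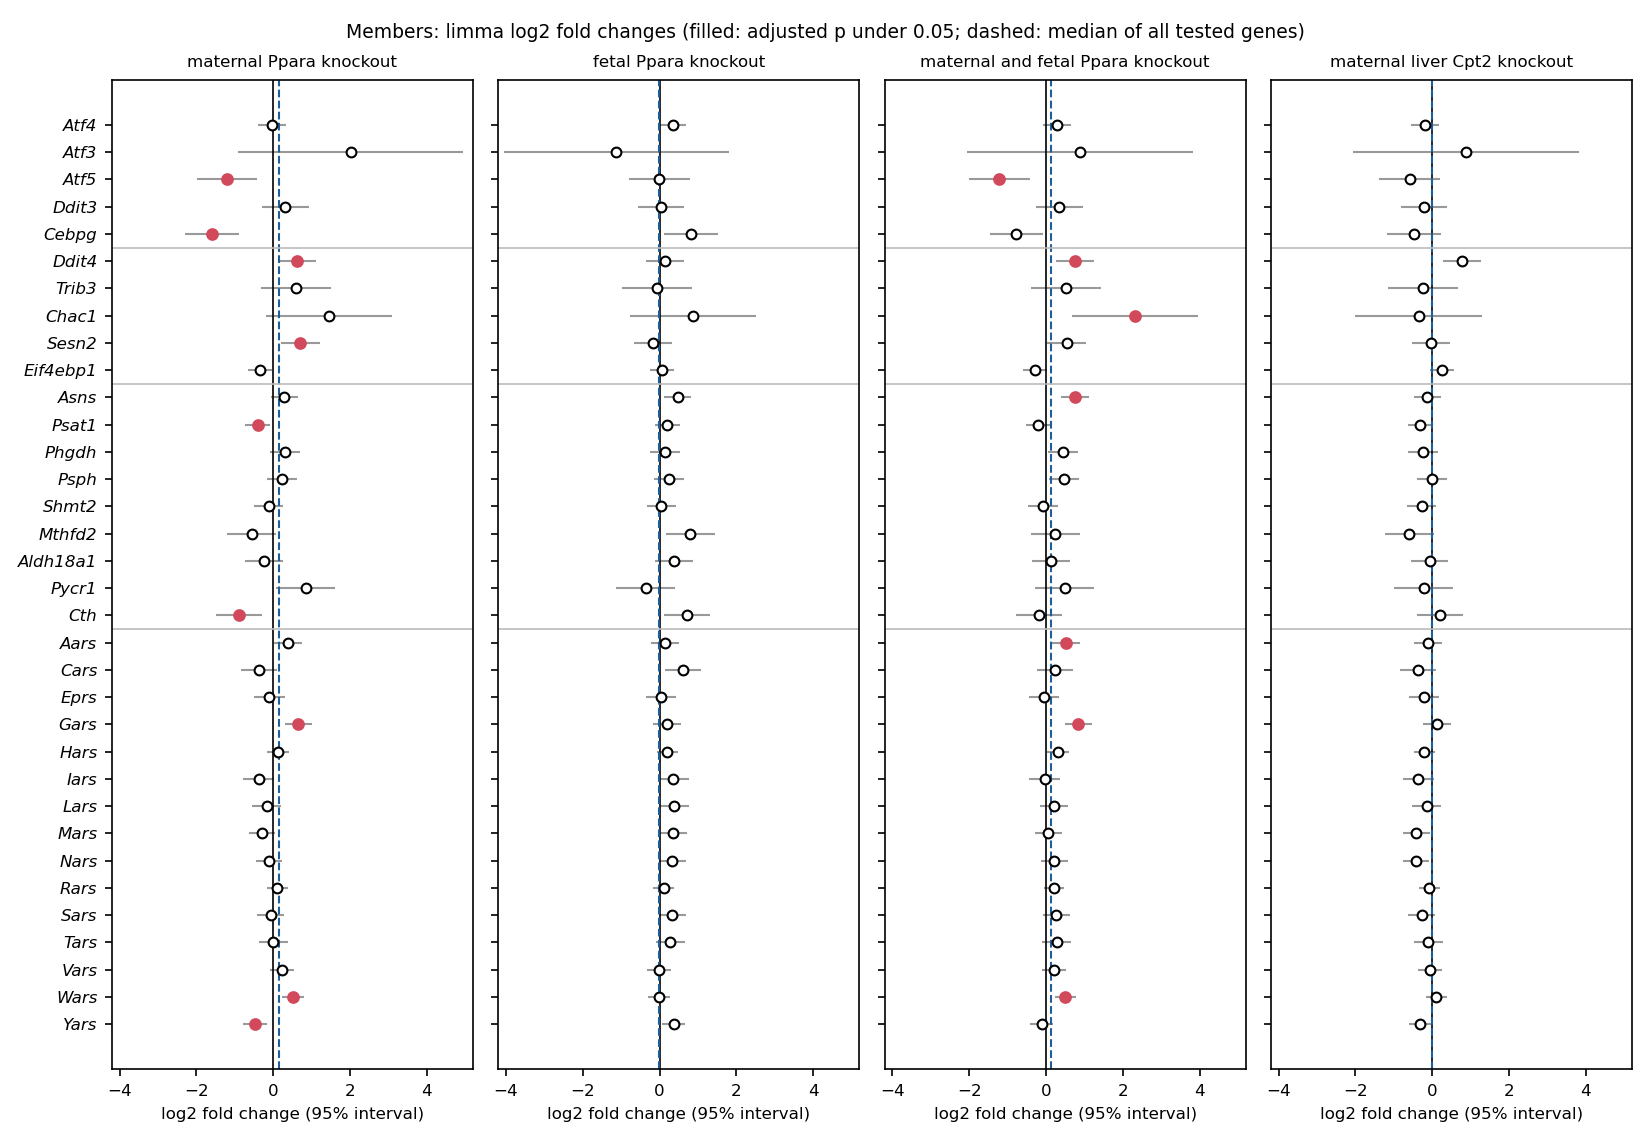
Limma log2 fold changes with 95% intervals for the 34 genes in 4 comparisons, filled where the adjusted p was under 0.05, with the all-gene median dashed. Called genes are 4 higher and 5 lower for the maternal Ppara knockout, 0 for the fetal knockout, 6 higher and 1 lower for both together, and 0 for the maternal Cpt2 knockout.

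When fetus and dam both lacked Ppara, more genes of the set were called higher than lower relative to HetDam_HetFetus. Asns, Chac1, Ddit4, Gars, Wars and Aars rose, Atf5 fell, and 27 genes were not called (limma, 11801 genes tested). Among all genes 17.4% were called higher and 7.31% lower, so the share called higher in the set was close to the background. The median was 0.26 over the 34 genes and 0.14 over all genes, and 25 of the 34 fold changes were positive, against 7355 of the 11801. Without KODam_KOFetus replicate 1 both medians stood at 0.14. Without replicate 4 of that group the median of the 34 was 0.37, and the all-gene calls were 1295 higher and 533 lower. Trimmed-mean centring gave 4 higher and 1 lower, with all-gene calls moving from 2053 higher and 863 lower to 1152 and 1385. This comparison shares its controls with the one above, so the values stand side by side and are not independent.

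Asns had log2 values of 7.03, 7.02, 6.79 and 6.73 in KODam_KOFetus, all above the HetDam_HetFetus range of 5.91 to 6.54. It rose by 0.76 ± 0.17 (limma adjusted p = 0.00423), a 1.69-fold change. Phgdh and Psph, of serine synthesis, stood at 0.44 ± 0.19 (adjusted p = 0.0858) and 0.47 ± 0.18 (0.0671), and Psat1 and Cth at -0.21 and -0.17, none of them called.

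Chac1 (chromosome 2, 119351242 to 119354326) read 0.97, 1.62, 1.33 and 0.71 in KODam_KOFetus and -0.56, -1.71, -1.63 and -0.76 in HetDam_HetFetus. The groups did not overlap, and the log2 fold change was 2.33 ± 0.79 (limma adjusted p = 0.0374). These are low values near a linear 1, and with a pseudocount of 1 the change was 1.15 (adjusted p = 0.0552). Its call was lost in 14 of 21 alternatives.

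Ddit4 read 4.60, 5.25, 4.78 and 5.02 in KODam_KOFetus, above all controls, and rose by 0.76 ± 0.24 (limma adjusted p = 0.0268), a call lost in 8 of 22 alternatives. Trib3 read 2.52, 2.85, 2.94 and 2.70, which overlapped its controls (0.52 ± 0.44, adjusted p = 0.396). Ddit3 read 3.08, 3.21, 3.03 and 3.26, just above its controls of 2.38 to 2.99, without a call (0.35 ± 0.29, adjusted p = 0.386).

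Atf4 read 7.23, 7.08, 6.52 and 6.44 in KODam_KOFetus, the first pair above every HetDam_HetFetus library and the second within their range. The log2 fold change was 0.30 ± 0.17 (limma adjusted p = 0.21). Atf5 read 5.62, 6.89, 5.86 and 5.32, of which replicate 2 fell within the control range, and it fell by 1.21 ± 0.38 (adjusted p = 0.0267). Leaving out 1 library ended that call in 6 cases, with adjusted p-values between 0.0526 and 0.0898: the libraries were replicates 1, 2 and 3 of HetDam_HetFetus and replicates 1, 3 and 4 of KODam_KOFetus. Cebpg was not called at -0.77 ± 0.33 (adjusted p = 0.0934), while without KODam_KOFetus replicate 2, one of the libraries rich in muscle transcripts, it was -1.07 (adjusted p = 0.0214).

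Gars read 6.10, 5.83, 5.90 and 5.69 in KODam_KOFetus, above all controls, and rose by 0.84 ± 0.17 (limma adjusted p = 0.00247). Aars (alanine; chromosome 8, 111027778 to 111055569) read 5.23, 4.83, 5.15 and 4.43 against 4.64, 4.14, 4.37 and 4.38 in the controls. Its groups overlapped through KODam_KOFetus replicate 4, and the log2 fold change was 0.53 ± 0.18 (adjusted p = 0.0371), a call lost in 12 of 22 alternatives. Wars averaged 3.12 ± 0.0891 (SD, n = 4) against 2.62 ± 0.221, with no overlap and a change of 0.50 ± 0.13 (adjusted p = 0.0116). Yars stood at -0.11 ± 0.15 (adjusted p = 0.607), and 12 of the 15 synthetase fold changes were positive.

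Asns and Gars lost their calls in 1 of 22 alternatives, the one that left HetDam_HetFetus with 1 library. Without the 3 libraries furthest in marker transcripts, Asns and Gars were called higher and Atf5 and Cebpg lower. Of the 10 genes with the element in their window, 4 were called higher and 0 lower (median 0.52), and of the 15 whose window lacks it, 1 was called higher and 1 lower (median 0.24), where 17.4% of all genes were called higher. For the maternal knockout the genes with the element had 1 called higher and 1 lower (median 0.49), and those without it 2 higher and 3 lower (median -0.10). These groups were not tested against each other.

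The lists around the set stand against the same 17.4% higher and 7.31% lower of all genes. Of the 17 genes for eIF2 and associated factors, 7 rose and 0 fell (median 0.39). These included Eif2b2 at 0.72, Eif2b3 at 0.87, Eif2b1 at 0.47 and the associated factor gene Eif2a at 0.35. Among the 26 further ATF4 targets 5 rose and 0 fell, with Tcea1 at 0.68, the GTPase gene Gtpbp2 at 0.56, the cationic amino acid transporter Slc7a1 at 0.75 and Ppp1r15a at 0.69. The 8 other cytosolic synthetase and scaffold genes had 5 rises and 0 falls, with Aimp2 at 0.58, Aimp1 at 0.46, Kars at 0.36 and the glutamine enzyme Qars at 0.36. Mitochondrial synthetases had 1 rise, Mars2 at 0.73.

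Further serine, folate, proline and transsulfuration genes gave 2 rises and 4 falls, with the thymidylate synthase gene Tyms at 0.61, Mthfd1 at -0.70 and Amt at -0.78. The IRE1 and ATF6 branches gave 1 rise, Atf6 at 0.68, and 2 falls, Pdia4 at -0.96 and Xbp1 at -0.82. The p53 targets had 4 rises (Trp53inp1 1.17, Gtse1 0.96, Aen 0.73, Mdm2 0.35) and the cell cycle genes 13, with no falls in either. Neutrophil markers fell in 7 of 13 genes (summed linear value 4031 to 6924), and erythroid markers rose in 3 of 12 (109819 to 118081). Hba-a1, much of the erythroid sum, read 16.36 in every KODam_KOFetus library as well. The part of these markers in these results was not tested.

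The fetus's own Ppara was examined within knockout dams, by comparing KODam_KOFetus with KODam_HetFetus. No gene of the 34 was called in either direction (limma, 11805 genes tested), where 0.0254% of all genes were called higher and 0.796% lower. At an unadjusted p under 0.05 there were 8 on the higher side (Cth, Yars, Asns, Mthfd2, Cebpg, Cars, Mars and Lars) and 0 on the lower side, against 626 and 661 of all genes. The median was 0.20 over the 34 genes and -0.01 over all genes, and 27 of the 34 fold changes were positive, against 5601 of the 11805. The median of the 34 was 0.32 without KODam_KOFetus replicate 4 and 0.16 without replicate 1, and without replicate 3 the all-gene higher calls went from 3 to 50.

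Asns read 6.73 to 7.03 in knockout fetuses and 6.32 to 6.49 in heterozygous fetuses, with a log2 fold change of 0.47 ± 0.17 (limma adjusted p = 0.344). The largest positive values were those of Chac1 (0.88 ± 0.79, adjusted p = 0.69), Cebpg (0.82 ± 0.33, 0.4) and Mthfd2 (0.81 ± 0.30, 0.364), a mitochondrial folate enzyme. Atf4 stood at 0.34 ± 0.17 (0.485), Ddit3 at 0.04 ± 0.29 (0.974) and Trib3 at -0.08 ± 0.44 (0.963). No gene of the 8 pathway lists was called. The 95% interval of Atf4 ran from -0.02 to 0.70. Without KODam_KOFetus replicate 4, Cars stood at 0.90 and was called (adjusted p = 0.0116).

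Within KODam_KOFetus the presumed littermates stood apart from the other 2 fetuses in many of the genes. Replicates 1 and 2, the presumed littermates, both lay above replicates 3 and 4 in 16 of the 34 genes (47.1%), against 25.2% of all genes, and both lay below them in 3 (8.82%), against 20.9%. Among the 15 synthetases both lay above in 10 (66.7%). The median difference between the pairs was 0.359 log2 units over the 34 genes, 0.529 over the synthetases and 0.0232 over all genes. These are descriptions of 4 libraries, with no test, and were looked at after the values were seen.

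Mthfd2, singled out here, read 4.97 and 4.61 in the littermates and 3.21 and 3.27 in the other 2 fetuses. Cebpg read 3.39 and 3.69 against 1.76 and 2.36, the first pair near the control level and the second near that of KODam_HetFetus. Atf4, at 7.23 and 7.08 against 6.52 and 6.44, moved the same way.

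Atf3 ran in the opposite direction, at 0.46 and -1.07 in the littermates and 3.45 and 4.94 in the others. In this group the littermates are also the 2 males, and the other 2 are the females, so litter and sex cannot be told apart. Replicate 2, a littermate, was also the library of this group rich in muscle transcripts. Klf1, an erythroid transcription factor, read 7.04 and 6.60 in the littermates and 5.71 and 6.31 in the others. It is 1 of 12 listed erythroid genes, singled out after its values were seen, and Hba-a1 read 16.36 in every library of the group. The part of muscle or erythroid transcripts in this split was not tested.

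The littermates of KODam_HetFetus, 1 female and 1 male, both lay below the other 2 in 15 of the 34 genes (44.1%), against 46.6% of all genes. They both lay above in 3, namely Atf3, Phgdh and Shmt2 (8.82%, against 15.4% of all genes). The littermates of FloxDam_FloxFetus both lay above in 10 (29.4%, against 39.6% of all genes) and below in 7 (20.6%, against 21.9%). Shares near those of all genes say nothing particular of the set. With litter as a random block in the fit (consensus correlation 0.566), Gars, Sesn2 and Wars were called higher and Cebpg and Yars lower for the maternal knockout, and Asns, Gars and Wars were called higher and Atf5 lower for both knockouts together.

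**Figure D4:**
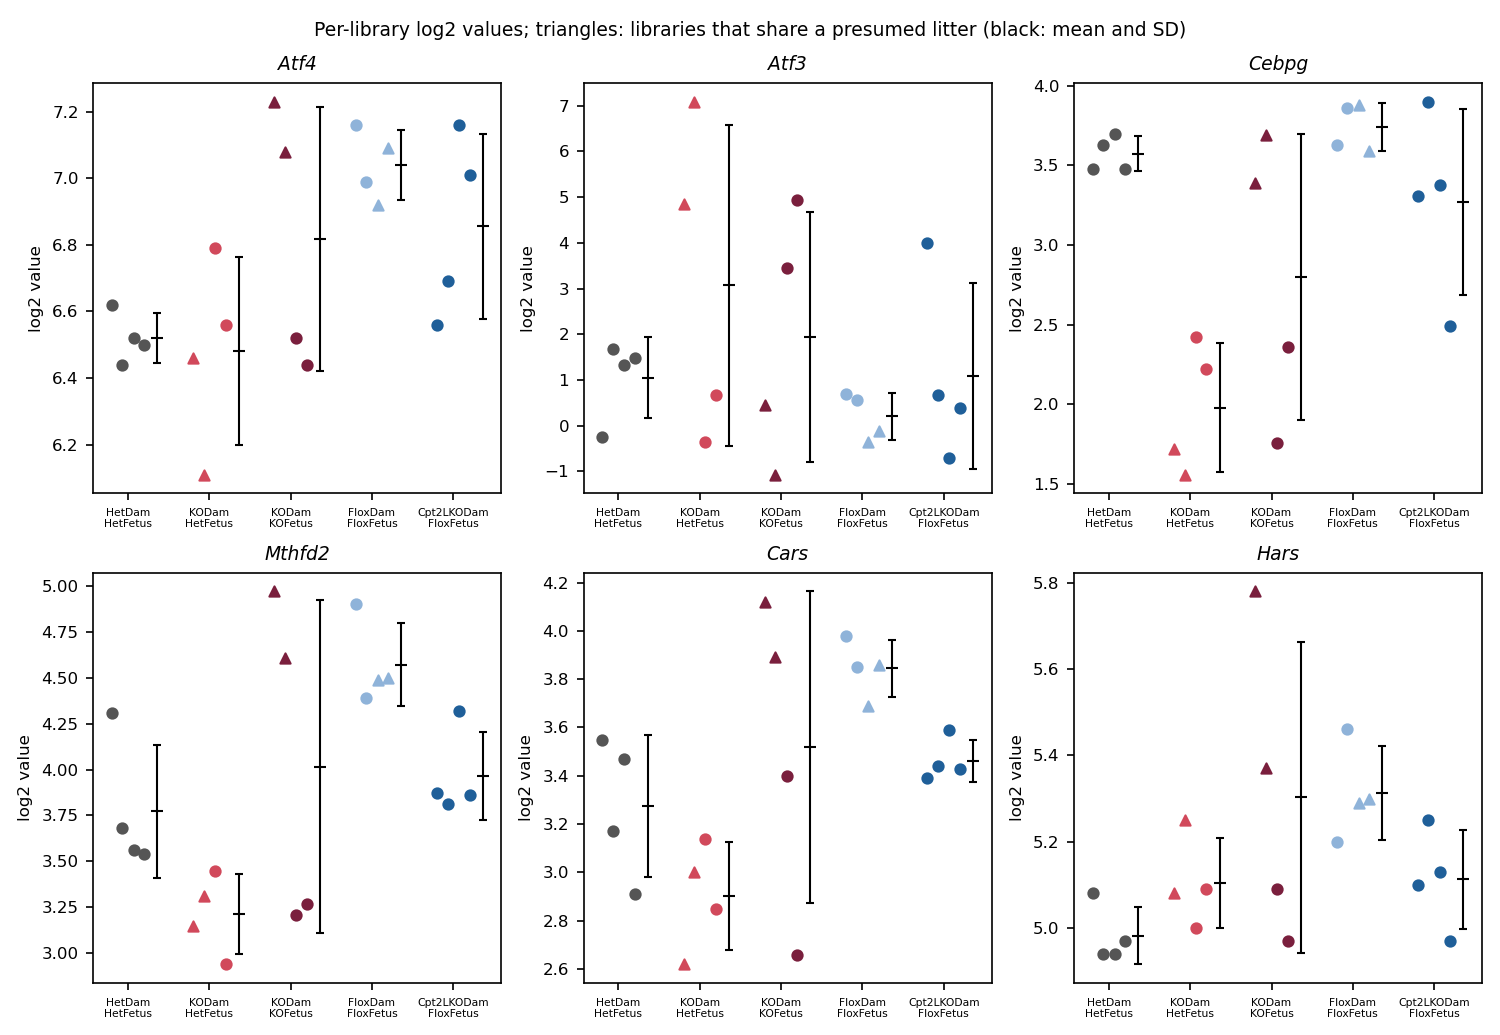
Log2 values of 6 genes in each library, with triangles for libraries that share a presumed litter and the group mean and SD in black. In KODam_KOFetus the littermates lie above the other 2 fetuses for Atf4, Cebpg, Mthfd2, Cars and Hars and below them for Atf3.

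Loss of Cpt2 in the maternal liver was compared with floxed controls. None of the 34 genes was called (limma, 11805 genes tested), and neither was any gene of the table, the background being 0% in both directions. At an unadjusted p under 0.05 there were 1 on the higher side (Ddit4) and 3 on the lower side (Yars, Mars and Nars) of the 34, and 653 and 658 of all genes. Of the 34 fold changes 28 were negative and 6 positive, against 5778 positive of the 11805, and the median was -0.21 against -0.01 for all genes. That median was -0.08 without Cpt2LKODam_FloxFetus replicate 1 and -0.09 without replicate 2, the library rich in pancreas transcripts. In 6 genes (Yars, Mthfd2, Cars, Mars, Nars and Psat1) all Cpt2LKODam_FloxFetus libraries lay below all controls, which is 6 of 34 where 2.86% of all genes did so.

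Ddit4 read 4.39, 3.17, 4.60 and 4.05 in FloxDam_FloxFetus and 5.06, 4.61, 4.63 and 4.99 in Cpt2LKODam_FloxFetus, without overlap, with a log2 fold change of 0.77 ± 0.24 (limma adjusted p = 0.354). Atf4 read 7.16, 6.99, 6.92 and 7.09 against 6.56, 6.69, 7.16 and 7.01 (-0.18 ± 0.17, adjusted p = 0.719). The groups overlapped in Atf4, with replicates 1 and 2 of the Cpt2 dams lower than every control.

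Asns read 6.75, 6.43, 6.43 and 6.51 in controls and 6.06, 6.04, 6.81 and 6.71 in Cpt2LKODam_FloxFetus (-0.13 ± 0.17, limma adjusted p = 0.814). Trib3 read 4.38, 2.84, 3.55 and 3.03 against 2.60, 2.17, 4.48 and 3.61 (-0.23 ± 0.44, adjusted p = 0.869). Replicates 3 and 4 of Cpt2LKODam_FloxFetus were the higher pair in Atf4, Asns and Trib3. They were also the higher pair in most other genes of the set, such as Ddit3, Chac1, Sesn2, Gars and Nars. This pattern was seen after the values were known and was absent in others such as Psat1, Mthfd2, Ddit4 and Yars. Its share over all genes was not examined, so it is not shown to be particular to the set.

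Ddit3 read 4.37, 3.25, 3.32 and 3.38 in controls and 2.77, 2.99, 4.42 and 3.26 in Cpt2LKODam_FloxFetus (-0.22 ± 0.29, limma adjusted p = 0.811). Chac1 ran from -1.56 to 2.21 within Cpt2LKODam_FloxFetus. The largest negative value was that of Mthfd2, at -0.60 ± 0.30 (adjusted p = 0.472). No gene of the 8 pathway lists was called.

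Whether the maternal Ppara and Cpt2 defects differed in effect was tested as an interaction. None of the 34 genes was called (limma, 11798 genes tested, with 0% of all genes called in either direction). That background rests on 1 library, since without Cpt2LKODam_FloxFetus replicate 4 the calls over all genes were 343 higher and 78 lower, with none among the 34. At an unadjusted p under 0.05 there were 4 on the higher side (Phgdh, Sesn2, Gars and Wars) and 3 on the lower side (Cth, Cebpg and Eif4ebp1), against 1829 and 514 of all genes, and the smallest adjusted p was 0.159, for Eif4ebp1 (-0.60 ± 0.21). For Cebpg the Ppara effect was 1.12 ± 0.47 log2 units below the Cpt2 effect (a difference of -1.12, 95% interval -2.10 to -0.13, adjusted p = 0.205), and for Atf4 the difference was 0.15 ± 0.24. A gene called in one arm and not in the other is therefore not shown to differ between the arms.

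The control groups of the arms were compared directly, as HetDam_HetFetus minus FloxDam_FloxFetus. No gene of the 34 was called (limma, 11800 genes tested), where 0.0593% of all genes were called higher and 0.0763% lower, which is 9 genes lower and became 28 without HetDam_HetFetus replicate 1. At an unadjusted p under 0.05 there were 13 on the lower side and 0 on the higher side, against 1861 and 85 of all genes. The median was -0.24 over the 34 genes and -0.15 over all genes. Of the 34 fold changes 28 were negative and 6 positive, against 3197 positive of the 11800, so most fold changes were negative in both.

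Atf4 read 6.44 to 6.62 in HetDam_HetFetus and 6.92 to 7.16 in FloxDam_FloxFetus, without overlap (-0.52 ± 0.17, limma adjusted p = 0.177). Trib3 stood at -1.22 ± 0.44 (adjusted p = 0.197), Ddit3 at -0.79 ± 0.29 (0.208), Mthfd2 at -0.79 ± 0.30 (0.221), and Asns, which overlapped, at -0.39 ± 0.17 (0.253). In 12 genes (Atf4, Ddit3, Trib3, Mthfd2 and the synthetases Aars, Cars, Gars, Hars, Mars, Nars, Sars and Yars) all HetDam_HetFetus libraries lay below all FloxDam_FloxFetus libraries, which is 12 of 34 where 9.7% of all genes did so. The arms differ in colony and genotype together, which cannot be told apart here, and a level in one arm is not a baseline for the other. In FloxDam_FloxFetus the levels of Gars (5.37 to 5.51) lay between those of HetDam_HetFetus (4.69 to 5.31) and KODam_KOFetus (5.69 to 6.10).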

How the data were processed

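Per the labels' protocols, RNA from snap-frozen E17.5 livers was extracted with Trizol and a column, and stranded mRNA libraries were sequenced as single reads of 75 nucleotides. GRCm38.p6 is the build, and Partek 7.0 and bcl2fastq 2.17.1.14 are the tools, named per the submitters' processing notes. The authors deposited log2 values for 45802 gene entries in 20 libraries. Quartiles agreed between libraries to within 4.15e-05, so the values had been quantile normalized. For the quantity before the logarithm, the aligner and the counting rule, the sources used here give nothing. A blank cell counted as a missing value, and 10591 genes lacked a value in all libraries. Depth is unknown and no count test was run.

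Genes with a linear value of at least 1 in at least 4 libraries (11807) were fitted with limma 3.58.1 in R 4.3.3 (a mean per group over all 20 libraries, eBayes with trend; residual df 15, prior df 4.09). Tests were two-sided, with Benjamini-Hochberg adjustment over all genes of a comparison and calls at an adjusted p under 0.05. Simulated data with known changes were used to test this fit. Errors are SE for fold changes and SD for group means. Fetuses were counted as independent, so p-values do not separate litters from fetuses. Same-numbered replicates are not paired by the labels, and 24 of 40 same-numbered pairs correlated under 0.1.

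Genes and lists were chosen with earlier results of these data known. Values in every library are given for the 6 called genes with the largest absolute fold change per comparison and for Atf4, Ddit3, Asns and Trib3, and up to 4 called genes per pathway list are named. Alternatives were pseudocounts, filters, centring, quantile normalization, blocks for litter or replicate number, fetal sex, fits on the compared groups, and leaving out libraries. Gene positions and promoter windows are from RefSeq (GRCm38.p6). A gene that was counted in one of the lists is not reported here by name.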

Additional observations from a re-analysis of the deposited data

Results flagged for a closer look

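In 170 groups of 4 libraries (34 genes in 5 groups), 3 held a library far from the other 3 by Dixon's criterion, whereas chance flags about 1 in 20 groups (5%). Ddit3 read 4.37 in FloxDam_FloxFetus replicate 1, where the nearest of the others was 3.38. Mthfd2 read 4.32 in Cpt2LKODam_FloxFetus replicate 3, with the nearest at 3.87. Sesn2 read 2.34 in KODam_KOFetus replicate 3, with the nearest at 1.91. None of the 34 genes had a called difference between the maternal Ppara and Cpt2 effects.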

How the results depend on the processing

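No fold change of the 34 genes that was called changed sign, and of the single-gene values under an alternative 4636 kept their side of the threshold, 94 lost a call and 18 gained one. Most of the 4636 had no call to lose, so this total does not measure how stable the calls were. Among called genes, losses ran from 0 of 22 alternatives (Cebpg, maternal knockout) to 16 of 22 (Ddit4, maternal knockout). Setting aside 5 libraries with transcripts of neighbouring tissues gave 0 higher and 1 lower for the maternal Ppara knockout (4 and 5 as reported) and 0 higher and 0 lower for both knockouts (6 and 1 as reported), with 1 library left in HetDam_HetFetus. Setting aside only the 3 furthest, an alternative chosen after seeing the data, gave 2 higher and 4 lower for the maternal knockout, and 2 higher and 2 lower for both. Litter as a random block gave 3 higher and 2 lower for the maternal knockout and 3 higher and 1 lower for both, and without the littermate pair of KODam_HetFetus 3 were higher (Chac1, Gars and Wars) and 1 lower for the maternal knockout. Leaving out 1 replicate at a time gave 2 to 4 higher and 1 to 5 lower for the maternal knockout, 3 to 6 higher and 0 to 2 lower for both, and 0 to 1 higher for the fetal knockout (Cars, without KODam_KOFetus replicate 4). The lowest of these counts came without HetDam_HetFetus replicate 4 or KODam_HetFetus replicate 4 (2 higher) and KODam_HetFetus replicate 1 (1 lower) for the maternal knockout, and without HetDam_HetFetus replicate 4 (3 higher) for both. With a replicate block the counts were 3 higher and 4 lower for the maternal knockout, 7 higher and 1 lower for both, and 0 elsewhere, but same-numbered libraries share only a number. The Cpt2, interaction and control comparisons gave 0 calls among the 34 genes under every alternative run. Depth is unknown, so the precision of low values such as Chac1, Atf3 and Pycr1 cannot be stated.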
